A study of Homo sapiens with 12 samples.

Results

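Glycolysis and its induction by low oxygen were followed through 32 genes, read out of the 19251 genes listed for each library. The genes were chosen by name, without a filter on their values, but with earlier results of these data known. They were 3 transporters of glucose and lactate and 17 enzymes of the path from glucose to lactate, with 3 regulators of glycolytic flux. A further 9 are known to be induced by hypoxia. Each name was matched to 1 Ensembl identifier, all 32 were listed, and all 32 had enough reads to be tested.

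The libraries came from a pair of established human ovarian cancer lines, both labelled as epithelial, of ovary and of wild-type genotype. CAOV3 is labelled as high grade serous and TOV21G as clear, and the latter is known as a line of clear cell carcinoma. Per the labels' protocols, 250000 cells were seeded in DMEM with 10% FBS and antibiotics (1.5 mL), and either received no treatment or were kept with 150 µL of ovarian cancer ascites (10%) for 16 h. Ascites is fluid that builds up within the peritoneal cavity as this cancer spreads. The labels name no vehicle for the untreated wells and do not say how many donors the fluid came from. Each of the 4 groups (CAOV3 control, CAOV3 ascites, TOV21G control, TOV21G ascites) held 3 libraries, and the 12 libraries held 26697609 to 34491304 reads each. The labels do not say whether libraries of a group came from separate cultures, so p-values measure the spread between these libraries, which may be technical. Values are the authors' normalised read counts, in which each library's reads were divided by 1 factor for its depth.

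Glycolysis splits glucose into pyruvate in the cytosol, and lactate dehydrogenase turns pyruvate into lactate, which leaves the cell. When oxygen is low, the prolyl hydroxylases of the EGLN family no longer mark the HIF alpha subunits for destruction. HIF then binds short sites with the core ACGTG or GCGTG and raises glucose uptake, most glycolytic enzymes, PDK1, which holds pyruvate back from the mitochondria, and genes such as VEGFA and CA9. Clear cell ovarian cancers are known for high expression of HIF targets and of glycolytic genes.

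Before the values, short stretches at the starts of 4 members are shown, because the comparisons below turn on these genes. After ascites HK2 was called higher in CAOV3, in all 23 settings of the analysis. PFKFB3 was called lower in TOV21G, in 16 of 23 settings. BNIP3 and CA9 differed widely between the untreated lines. The sequences are those of RefSeq on GRCh38.p14, read 5′ to 3′ on the strand of the gene, and capitals mark each ACGTG or GCGTG in either orientation (CACGT and CACGC are the reverse complements). PFKFB3 is shown over the 250 bases before its first listed start (chr10:6144671-6144920, plus strand), and BNIP3 over the 160 bases of its window that lie outside exons (chr10:131982014-131982173, minus strand). HK2 (chr2:74834060-74834089, plus strand) and CA9 (chr9:35673891-35673920, plus strand) are shown over 30 bases that hold their motifs nearest the RefSeq start. Both of these stretches lie before the start in RefSeq, but GENCODE 29 starts both genes further upstream, so all 30 bases of each fall within an exon of the gene there.
HK2: cgcagccaatggGCGTGcgCACGTcactga
PFKFB3: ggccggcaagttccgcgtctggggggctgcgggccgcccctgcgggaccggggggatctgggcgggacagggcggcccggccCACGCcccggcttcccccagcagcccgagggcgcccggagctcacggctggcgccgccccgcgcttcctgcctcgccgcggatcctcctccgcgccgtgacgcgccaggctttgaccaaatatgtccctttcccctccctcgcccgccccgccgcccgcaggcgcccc
BNIP3: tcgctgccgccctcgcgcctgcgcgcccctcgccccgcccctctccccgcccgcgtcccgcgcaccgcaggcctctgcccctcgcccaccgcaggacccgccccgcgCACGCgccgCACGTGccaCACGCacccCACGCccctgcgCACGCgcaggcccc
CA9: ccagctctcgtttccaatgCACGTacagcc

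HK2 held a GCGTG and an ACGTG next to each other at 55 and 48 bases before its start, and a further ACGTG at 229. BNIP3, a mitochondrial protein that promotes mitophagy, held 6 matches, between 143 and 104 bases before the start, counting an E-box (CACGTG) as ACGTG on both strands. CA9 held 1 match at 18 bases, and PFKFB3 held 1 match at 168 bases. The RefSeq table matched 29 of the 32 members; it has no entry for SLC2A3, VEGFA and NDRG1. Over the 250 bases before the first start of each gene, 18 of 29 members (62.1%) held ACGTG or GCGTG on either strand, against 43.1% of all 27305 windows. ACGTG alone was present in 12 of 29 members (41.4%) and in 18.7% of all windows. The member windows also held more CpG dinucleotides, with a median of 22 against 11, and both motifs contain a CpG. A match is a description of letters and no evidence of binding. EGLN3 held none in its window, and HK2 and PFKFB3 each have 2 starts in the table.

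Some facts of the libraries bear on all results. The labelled epithelial identity was checked on KRT8 and KRT18, which had means of 66468 and 47679 normalised counts in CAOV3 controls and 5287 and 5738 in TOV21G controls. PAX8, a marker of Müllerian epithelium, was at 19.1 in CAOV3 controls and WT1, usual in serous cancer, at 4.59, so these defining markers of serous cancer were near absent from the line labelled serous. Of 27 markers of blood, vessel, mesothelial and stromal cells, 12 were listed, and PTPRC, CD3E and HBB were not among them. The sum of these 12 ran from 4865 to 5654 in CAOV3 controls and 4433 to 4710 after ascites, and from 2518 to 2660 and 2385 to 2553 in TOV21G. The ranges with ascites lay below those of the controls in CAOV3 and overlapped them in TOV21G. Most of each sum came from 1 gene that was already high in the controls. In CAOV3 it was LUM, with means of 4196 in controls and 3647 after ascites. In TOV21G it was COL1A1, with means of 1945 and 1839. Of 10 tested markers of epithelium and line identity, limma called 2 higher after ascites in CAOV3, KRT8 and KRT18 (log2 differences 0.29 and 0.33, adjusted p 0.0231 and 0.0102), and the others ran from -0.64 for CDH1 to 0.20 for PAX8, with 6 positive and 3 negative in all. By edgeR and DESeq2, KRT7 was also called higher and CDH1 lower in CAOV3, and PAX8 higher in TOV21G. KRT8 was called for the difference between the lines as well (-0.41, adjusted p 0.0483), which was lost without 10 of the 12 libraries in turn, and the KRT8 call in CAOV3 was lost without any 1 CAOV3 library (adjusted p 0.0557 to 0.102). The part of these markers in the results below was not tested. In bulk libraries, fewer cells of a kind and less RNA per cell cannot be told apart.

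In CAOV3, a small number of the 32 genes were higher after ascites, each by a modest amount, and none was called lower. They were HK1 and HK2, hexokinases that phosphorylate glucose on entry, and VEGFA, the main angiogenic factor. A further hexokinase outside the 32, HKDC1, was not called (1185, 1085 and 1127 in controls, 1208, 1115 and 1309 after ascites, adjusted p 0.579). That is 3 of 32 members called higher and 0 called lower at an adjusted p under 0.05 (limma, adjusted over all 17616 genes tested), while 0.636% of all tested genes were called higher and 1.1% lower (1.73% in either direction). Of the 32, 7 had an unadjusted p under 0.05, as had 12.9% of all genes. Both edgeR and DESeq2 also called 3 members higher and 0 lower, and called 2.901% and 2.645% of all genes in either direction.

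HK2 (chr2:74833981-74893359, plus strand) had 3771, 3719 and 3806 normalised counts in the CAOV3 controls and 4911, 4505 and 4767 after ascites. Every ascites library lay above every control. The log2 difference was 0.33 ± 0.04 (SE), a rise of 25.5%, with an adjusted p of 0.0018, and HK2 stayed called in all 23 settings tried. HK1 (chr10:69269984-69401884, plus strand) had 7137, 7198 and 7682 in controls and 8544, 8172 and 8689 with ascites, again without overlap. Its log2 difference was 0.21 ± 0.05 (adjusted p 0.0375).

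VEGFA (chr6:43770184-43786487, plus strand) had 992, 949 and 1024 in CAOV3 controls and 1129, 1109 and 1141 after ascites, a log2 difference of 0.19 ± 0.04 (adjusted p 0.0252). The 3 ascites values lay close together and above the controls. HK1 and VEGFA sat near the threshold. Without CAOV3 control 1, control 2, ascites 1, ascites 2 or ascites 3, or TOV21G control 3, neither was called (adjusted p 0.0616 to 0.158 for HK1, and 0.0512 to 0.0995 for VEGFA). HK1 was also lost without TOV21G ascites 1 (0.0688), and with CAOV3 libraries alone both were lost (0.0686 for HK1 and 0.0626 for VEGFA).

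**Figure D1:**
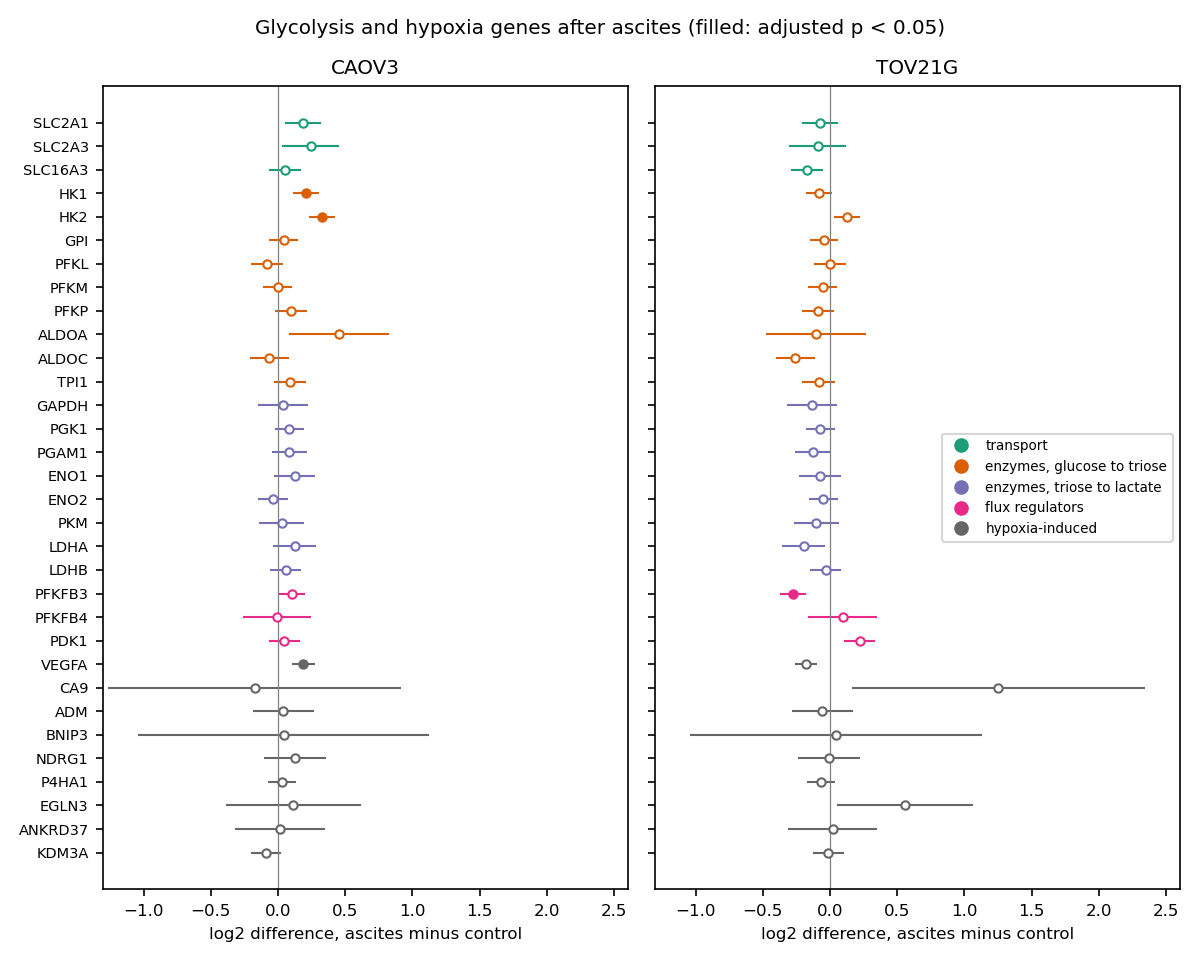
Log2 difference, ascites minus control, of each of the 32 genes in CAOV3 (left) and TOV21G (right), with bars for the 95% interval of the limma fit and colours for the role of the gene. Filled points passed an adjusted p under 0.05: HK1, HK2 and VEGFA, all higher, in CAOV3, and PFKFB3, lower, in TOV21G.

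Glucose transport in CAOV3 leaned the same way without passing the test over all genes. SLC2A1, the basal glucose transporter GLUT1, had 3354, 3435 and 3231 in controls and 3809, 3768 and 3810 after ascites (log2 difference 0.18 ± 0.06, adjusted p 0.196). Its groups did not overlap, and with the CAOV3 libraries alone it was called (adjusted p 0.0376). SLC2A3, the high-affinity transporter GLUT3, had 663, 698 and 693 in controls and 748, 778 and 915 after ascites (log2 difference 0.24 ± 0.10, adjusted p 0.305), again without overlap and with ascites 3 the highest library. SLC2A3 has a near-identical neighbour, SLC2A14, so its reads are uncertain. The lactate exporter SLC16A3 (MCT4) differed by 0.05 (95% interval -0.07 to 0.17).

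The remaining enzymes of CAOV3 moved little. ALDOA had the largest difference of any member, at 0.45 ± 0.17, with 382.5, 390.5 and 276.1 in controls and 444.1, 546 and 437.9 after ascites, but its adjusted p was 0.264. In GENCODE 29, 42.3% of the exon bases of ALDOA are shared with AC093512.2 on the same strand, which was itself listed at 14.85 to 95.57 over the 12 libraries. The level of ALDOA is therefore uncertain, and so is any comparison with its paralog ALDOC. Leaving ALDOA out, the 14 enzymes not called had log2 differences between -0.08 and 0.12, and their 95% intervals reached from -0.21 to 0.28. The last enzyme, LDHA, which makes lactate, had 48364, 47841 and 49614 in controls and 52889, 52966 and 53013 after ascites (log2 difference 0.12, adjusted p 0.533).

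As a group, 13 of the 17 enzymes and 25 of the 32 members had a positive difference in CAOV3, with medians of 0.08 and 0.05. Over all tested genes 47.7% were positive and the median was -0.0021. For 13 members (40.6%) every ascites library lay above every control, which held for 11.4% of all genes, and for 0 members every ascites library lay below, against 12.8% (24.2% in either direction). The summed value of the 17 enzymes was 543338 to 549486 in the controls and 567194 to 571530 with ascites. The differences were small, and most did not pass the test one by one.

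The flux regulators and most hypoxia-induced genes were not called in CAOV3. PFKFB3, which makes the fructose 2,6-bisphosphate that activates phosphofructokinase, had 3573, 3531 and 3732 in controls and 3917, 3812 and 3920 after ascites (log2 difference 0.10 ± 0.04, adjusted p 0.328). PDK1 differed by 0.05 and PFKFB4 by -0.01. CA9, a carbonic anhydrase at the cell surface and one of the most used hypoxia markers, had 72.6, 67.8 and 83.1 in controls and 63.5, 71.6 and 62.4 after ascites (log2 difference -0.17, 95% interval -1.26 to 0.91). NDRG1, a stress-responsive gene, had 863, 785 and 886 and then 890.5, 878.3 and 999.6 (log2 difference 0.13, adjusted p 0.677). The groups of both genes overlapped. ADM, P4HA1, EGLN3, ANKRD37, KDM3A and BNIP3 had differences between -0.09 and 0.11 with adjusted p-values of 0.527 or more.

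**Figure D2:**
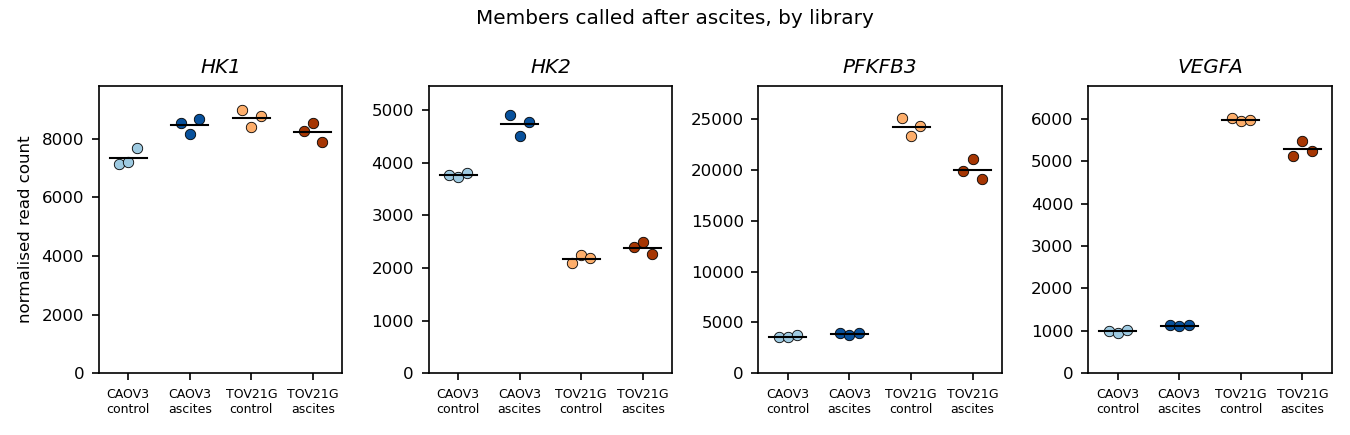
Normalised read count (each vertical axis starts at 0) of the 4 genes called in an ascites comparison, with 1 point per library and a line at the mean of each group of 3. HK1, HK2 and VEGFA are higher with ascites in CAOV3, and PFKFB3 falls from a mean of 24234 to 20006 in TOV21G.

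In TOV21G 1 member was called lower after ascites and none higher. PFKFB3 (chr10:6144934-6254644, plus strand) had 25061, 23336 and 24304 normalised counts in the controls and 19885, 21013 and 19120 after ascites. Every ascites library lay below every control, and the log2 difference was -0.28 ± 0.04, or 0.825-fold (adjusted p 0.017). That is 1 of 32 members called lower, beside 0.267% of all tested genes called lower, 0.142% called higher and 0.409% called in either direction. Of the 32, 9 had an unadjusted p under 0.05, as had 9.17% of all genes, and neither edgeR nor DESeq2 called a member higher.

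The PFKFB3 call leaned on the shared fit. With only TOV21G libraries its adjusted p was 0.487, and it was 0.0502, 0.0857, 0.0737 and 0.0549 without control 1, control 3, ascites 1 and ascites 3.

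VEGFA in TOV21G had 6014, 5943 and 5963 in controls and 5111, 5466 and 5242 after ascites, a log2 difference of -0.18 ± 0.04 with no overlap, and an adjusted p of 0.0813. It was called by DESeq2 (0.007) and without ascites 2 (0.0385). SLC16A3 had 10434, 9418 and 9494 and then 8517, 9409 and 8172 (log2 difference -0.17, adjusted p 0.367). LDHA had 106396, 89592 and 98675 and then 85497, 91864 and 79483, and its groups overlapped (log2 difference -0.20, adjusted p 0.448). ALDOC, the aldolase best known from brain, had 515, 470 and 475 in controls and 431, 427 and 363 after ascites (log2 difference -0.26, adjusted p 0.168).

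PDK1 leaned the other way. It had 705, 678 and 637 in controls and 795, 732 and 827 after ascites, without overlap (log2 difference 0.22 ± 0.05, adjusted p 0.143), and it was called without ascites 2 (0.0391). The 2 largest differences rested on few reads. CA9 had 3, 2 and 0 reads in controls and 11, 6 and 2 after ascites (2.38-fold on the scale of value + 1, 95% interval of the log2 difference 0.16 to 2.34). EGLN3, an oxygen sensor that HIF itself induces, had 5, 4 and 3 reads and then 8, 6 and 8 (log2 difference 0.56, 95% interval 0.05 to 1.06). Neither was called (adjusted p 0.477 and 0.495). HK2, called in CAOV3, had 2103, 2247 and 2187 in TOV21G controls and 2389, 2495 and 2268 after ascites, a log2 difference of 0.13 ± 0.04 (adjusted p 0.396).

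In TOV21G 15 of the 17 enzymes and 24 of the 32 members had a negative difference, with medians of -0.08 and -0.07, while 41.7% of all tested genes were positive and their median was -0.02. Of the 17 enzymes 0 were called by limma, edgeR or DESeq2, and 3 had an unadjusted p under 0.05 by limma. For 2 members every ascites library lay above every control, and for 4 every one lay below (6.25% and 12.5%, against 4.16% and 6.99% of all genes; 11.1% in either direction).

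The enzymes of TOV21G moved together from library to library. Their sum was 512028, 443217 and 470223 in controls 1, 2 and 3, and 435852, 469455 and 408936 in ascites 1, 2 and 3. Control 1 was the highest control for 16 of the 17 enzymes, and ascites 2 the highest ascites library for 15. KCNQ1OT1, an RNA that stays in the nucleus, ran in the inverse order, at 95.4, 656 and 234 in controls and 731, 235 and 1511 after ascites. MALAT1 and NEAT1, also nuclear, were lowest in control 1 and highest in ascites 3 (14363 and 66860 for MALAT1). After ascites all 3 RNAs had a positive log2 difference in TOV21G, from 0.53 to 1.38. None of the 3 was called by limma, edgeR or DESeq2. An unadjusted p under 0.05 was reached by 2 with limma, 3 with edgeR and 0 with DESeq2. In CAOV3, KCNQ1OT1 stayed between 614 and 813.

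**Figure D3:**
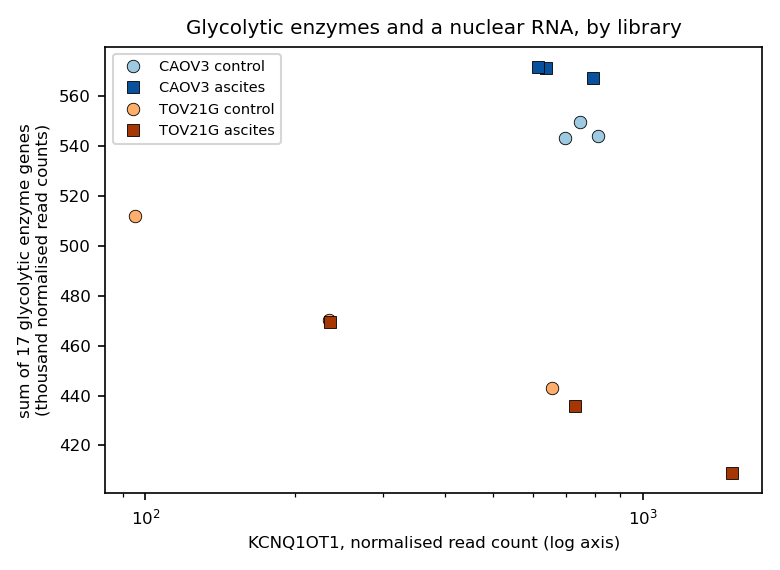
Sum of the 17 glycolytic enzyme genes (normalised read counts; the axis does not start at 0) against KCNQ1OT1 (normalised read count, log axis), 1 point per library. The 6 TOV21G libraries run from 512028 at the lowest KCNQ1OT1 to 408936 at the highest, across both treatments, while the CAOV3 ascites libraries lie above the CAOV3 controls.

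When each library was left out in turn, 13 to 16 of the 17 enzymes had a negative difference in TOV21G. Without both libraries at the ends of that order, control 1 and ascites 3, 10 were positive and 7 negative, with a median of 0.01. These are also the control with the highest enzyme sum and the ascites library with the lowest, and were chosen after the data had been seen, so leaving them out had to move the enzymes toward higher values with ascites. The same holds for PFKFB3, whose ascites value was lowest and control value highest in them; its difference was then -0.22, with an adjusted p of 0.086.

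The difference between the responses of the lines was tested directly. VEGFA had the lowest adjusted p among the members: its response was lower in TOV21G by 0.37 ± 0.05 on the log2 scale (adjusted p 0.0093), up in 3 of 3 CAOV3 libraries and below all controls in 3 of 3 TOV21G libraries. PFKFB3 differed by -0.38 ± 0.06 (adjusted p 0.0157). These were the 2 of 32 members that limma called in this contrast, both lower in TOV21G, beside 0.307% of all genes called lower, 0.238% called higher and 0.545% called in either direction. DESeq2 also called HK1 and LDHA, and edgeR HK1, while they called 1.01% and 0.84% of all genes in either direction. By limma 14 of the 32 members had an unadjusted p under 0.05, as had 11.9% of all genes. Without the TOV21G control 1 and ascites 3 libraries VEGFA and PFKFB3 stayed called by limma (adjusted p 0.0428 for each). PFKFB3 was lost without CAOV3 control 1, control 2, ascites 1 or ascites 3, or TOV21G control 3 or ascites 1, at 0.0528 to 0.0611.

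The difference was negative for 16 of the 17 enzymes, with a median of -0.18. Over all tested genes 47.2% were positive and the median was -0.01. Leaving out each library in turn, 15 or 16 of the enzymes were negative. Without both TOV21G control 1 and ascites 3, 15 were negative and the enzyme median shrank to -0.08. Leaving those libraries out had to move the enzymes toward higher values here too. HK1 had a difference of -0.29 ± 0.06 and an adjusted p of 0.078. HK2, called in CAOV3 alone, had a difference of -0.20 ± 0.06 and an adjusted p of 0.266, so its responses were not shown to differ between the lines. LDHA differed by -0.32 (adjusted p 0.28).

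Genes related to the 32 were counted in the same fits. Of 30 further hypoxia-induced genes, limma called 3 higher in CAOV3 and 0 lower, and 0 in either direction in TOV21G. The same counts came from edgeR and DESeq2. Limma called 0.636% of all tested genes higher and 1.1% lower in CAOV3, and 0.409% in either direction in TOV21G. By limma 6 and 7 of the 30 had an unadjusted p under 0.05, beside 12.9% and 9.17% of all genes. In CAOV3 16 of the 30 had a positive difference and 14 a negative one, with a median of 0.02. Over all tested genes 47.7% were positive there. ANGPTL4, a secreted inhibitor of lipoprotein lipase that PPAR factors and HIF both induce, had 847, 776 and 787 in CAOV3 controls and 1160, 1113 and 1123 after ascites (log2 difference 0.50 ± 0.06, adjusted p 0.000509). In TOV21G it had 1558, 1389 and 1516 and then 1381, 1549 and 1410, and its response differed between the lines by -0.54 (adjusted p 0.0104), or by -0.49 without TOV21G control 1 and ascites 3 (adjusted p 0.0545). STC2, a secreted glycoprotein, rose by 0.31 (adjusted p 0.00642) from a mean of 4409 to 5459 in CAOV3. BHLHE40, a transcriptional repressor, rose by 0.24 (adjusted p 0.0394) from a mean of 1759 to 2081 there, and its response differed by -0.42 (adjusted p 0.0269). When the 12 libraries were left out in turn, the BHLHE40 call was lost 7 times in CAOV3 and 9 times for the difference.

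The HIF system itself was not called after ascites. Of its 12 factors and oxygen sensors 0 were called in either line by limma, edgeR or DESeq2. By limma 1 in CAOV3 and 3 in TOV21G had an unadjusted p under 0.05, beside 12.9% and 9.17% of all genes. HIF1A had 7454, 7452 and 7840 in CAOV3 controls and 8457, 8041 and 8183 after ascites (log2 difference 0.12 ± 0.05, adjusted p 0.31), and differed by -0.02 in TOV21G. EPAS1, which encodes HIF-2 alpha, differed by -0.10 in CAOV3 and -0.13 in TOV21G (adjusted p 0.428 and 0.419). HIF activity is set mostly by protein stability, which these libraries do not measure.

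Around pyruvate, PDP1, the phosphatase that reactivates pyruvate dehydrogenase, was the 1 gene of 13 that limma called. It was higher in CAOV3, from a mean of 2504 to 2983 (log2 difference 0.25, adjusted p 0.0284). Limma called 1.73% of all tested genes in CAOV3 in either direction. The PDP1 call was lost without 5 of the 12 libraries in turn, and edgeR also called PDK2, a further pyruvate dehydrogenase kinase, lower. TXNIP, an inhibitor of glucose uptake that responds to glucose, had 1084, 1101 and 1145 and then 1265, 1190 and 1260 in CAOV3, and 1315, 1233 and 1261 and then 1111, 1169 and 1030 in TOV21G. It was called in neither line, but the difference between its responses was (-0.36, adjusted p 0.049), a call that was lost without 11 of the 12 libraries in turn. MYC, an activator of glycolytic genes, differed by 0.09 and -0.01. Limma called 0 after ascites in either line among 7 pentose phosphate genes, 7 other glycolytic enzyme isoforms and 10 other hexose and lactate transporters. At most 2 of a list had an unadjusted p under 0.05, beside 12.9% of all genes in CAOV3 and 9.17% in TOV21G. By edgeR and DESeq2 the exception was RPIA, a pentose phosphate isomerase, called higher in CAOV3.

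Untreated, the lines differed far more than either did after ascites. Of the 32 members 29 were called between the untreated lines, 12 higher and 17 lower in TOV21G. This share lay near the background, since 82.2% of all tested genes were called (40.8% higher and 41.4% lower). The groups of 12 members did not overlap with TOV21G higher and those of 17 with TOV21G lower, against 40.9% and 41.7% of all genes (82.6% in either direction). The same holds for the 13 members with a log2 difference of at least 1 in size (40.6%, against 42.6% of all genes). What follows describes the levels of each gene in the untreated lines. ALDOA, ENO1 and ANKRD37 were not called, and the 95% interval of ENO1 ran from -0.17 to 0.13.

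**Figure D4:**
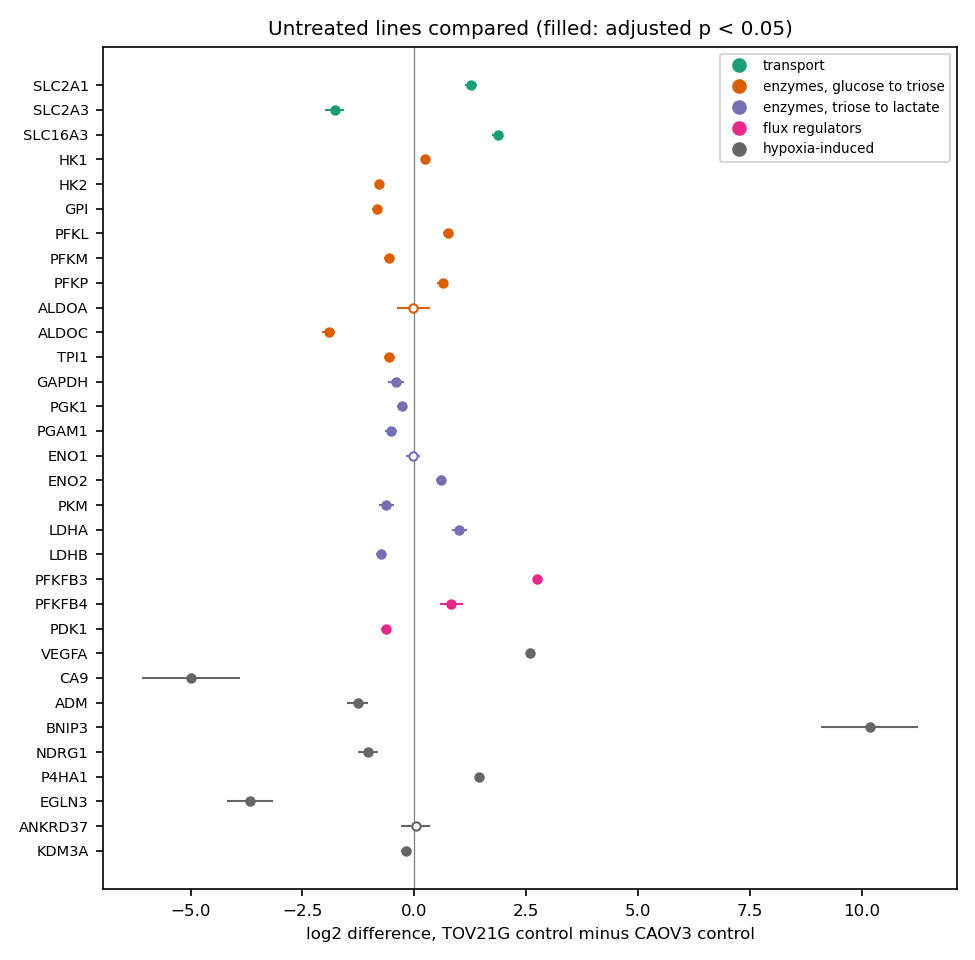
Log2 difference, TOV21G control minus CAOV3 control, of the 32 genes, with bars for the 95% interval and colours for the role. Filled points passed an adjusted p under 0.05, and values run from -4.99 for CA9 to 10.18 for BNIP3, which had 4 reads in all 3 CAOV3 controls together.

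The transporters of the untreated lines split. SLC2A1 had 3354, 3435 and 3231 in CAOV3 and 8887, 7380 and 7934 in TOV21G, a log2 difference of 1.27 ± 0.06 (adjusted p 1.95e-10). SLC16A3 was higher in TOV21G by 1.86, with 2620, 2782 and 2651 against 10434, 9418 and 9494. SLC2A3 was lower by 1.78 on the log2 scale, with 663, 698 and 693 against 191, 220 and 187. Per kb of exon, SLC2A3 made up 13.6% ± 0.49 of the pair with SLC2A1 in CAOV3 and 1.88% ± 0.32 in TOV21G (SD, n = 3). GLUT1 and MCT4 transcripts were thus the higher ones in TOV21G, and GLUT3 transcripts in CAOV3. A second lactate and pyruvate transporter outside the 32, SLC16A7 (MCT2), had a mean of 901 in CAOV3 and 2.81 in TOV21G.

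Between glucose and triose phosphate, 3 enzymes were higher in TOV21G and 5 lower. HK2 was lower (3771, 3719 and 3806 against 2103, 2247 and 2187; log2 difference -0.79 ± 0.04) and HK1 slightly higher (0.25). Per kb of exon, HK2 took 34.8% ± 0.74 of the hexokinase pair in CAOV3 and 20.6% ± 1.09 in TOV21G. HKDC1, a further hexokinase outside the 32, was higher in TOV21G by 2.50, at a mean of 1132 against 6396. GPI, which interconverts glucose and fructose 6-phosphate, was lower by 0.84 (17461 against 9768 in the means), and TPI1 by 0.56.

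Phosphofructokinase, the committed step, was mostly the platelet form in both lines. PFKP had a mean of 10010 in CAOV3 and 15584 in TOV21G, and took 66.5% ± 0.69 and 76.3% ± 0.38 of the 3 isoforms per kb of exon. PFKM, the muscle form, had 5277, 5457 and 5739 against 3887, 3512 and 3703, and took 24.1% and 11.98%. PFKL, the liver form, was higher in TOV21G (0.76) and took 9.39% and 11.7%. Per kb of coding length PFKP stayed the largest, at 56.4% in CAOV3 and 65.6% in TOV21G. PFKL then took 20.5% and PFKM 13.9% in TOV21G, so their order there depended on the length used. ALDOC was lower in TOV21G by 1.92, with 1909, 1769 and 1831 against 515, 470 and 475.

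From triose to lactate, 2 enzymes were higher in TOV21G, LDHA and ENO2, and 5 were lower. LDHA, whose subunits favour the making of lactate, had 48364, 47841 and 49614 in CAOV3 and 106396, 89592 and 98675 in TOV21G (log2 difference 1.01 ± 0.07, adjusted p 1.76e-08). LDHB, whose subunits favour pyruvate, had 34880, 35461 and 36093 against 22250, 20160 and 21288 (-0.74 ± 0.05). The lactate dehydrogenase pair therefore shifted toward LDHA in TOV21G, where it took 68.9% ± 0.79 per kb of exon, against 39.7% ± 0.34 in CAOV3. With coding length in place of exon length the shares were 79.0% and 52.7%, so the order of LDHA and LDHB within CAOV3 depended on the length used, while the shift between the lines did not. In GENCODE 29, 33.4% of the exon bases of LDHB are shared with another gene on its strand. ENO2, the neuronal enolase, had 964, 993 and 1011 against 1522, 1486 and 1458, and took 1.87% and 2.83% of the pair with ENO1.

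GAPDH, PKM, PGAM1 and PGK1 were lower in TOV21G by 0.41, 0.63, 0.52 and 0.28 on the log2 scale. Per kb of exon, GAPDH was the highest of the 32 in both lines, at 53402 ± 1041 in CAOV3 and 40274 ± 3210 in TOV21G. PKM came next in CAOV3 (16717 ± 208) and LDHA in TOV21G (15817 ± 1354). ENO1 followed in both, at 12141 ± 177 and 11998 ± 922 (SD, n = 3). It did not stand apart beyond the SDs from LDHB in CAOV3 (11893 ± 203) or from PKM in TOV21G (10820 ± 807). Per kb of coding length PKM came before ENO1 in TOV21G (51179 ± 3819 and 46509 ± 3576), so their order there depended on the length used. Several of these genes have processed pseudogenes, and how reads that map to several places were counted is not given in the sources used here.

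**Figure D5:**
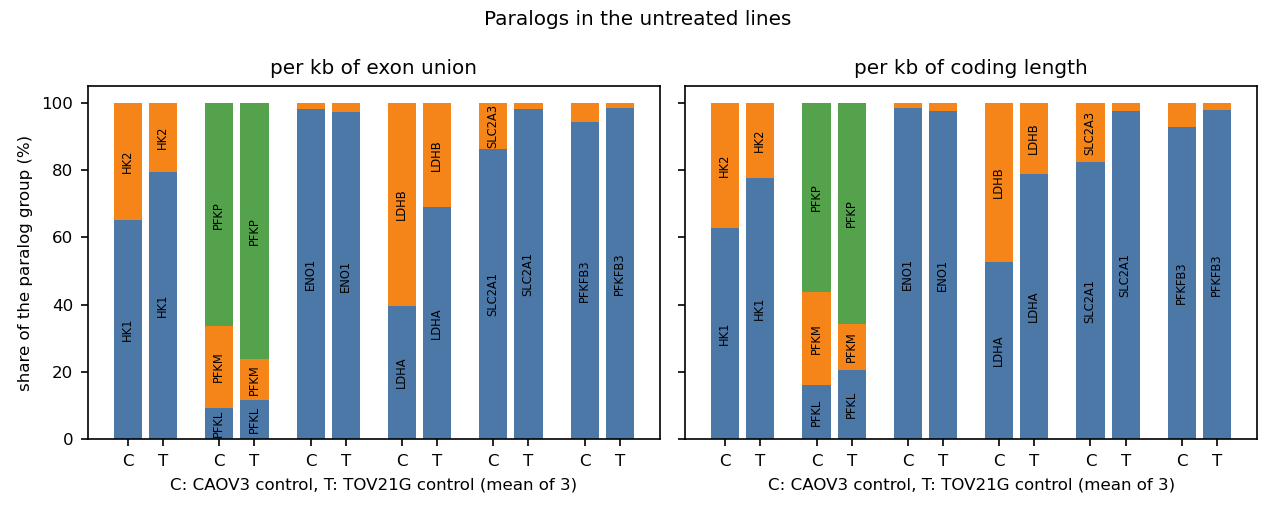
Share of each paralog group taken by its members in the untreated lines (C, CAOV3; T, TOV21G; mean of 3 libraries), from values per kb of exon union (left) and per kb of coding length (right). The unlabelled top segments are ENO2, PFKFB4 and, in TOV21G, SLC2A3; LDHA rises from 39.7% to 68.9% on the left and from 52.7% to 79.0% on the right.

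Among the flux regulators PFKFB3 differed most. It had 3573, 3531 and 3732 in CAOV3 and 25061, 23336 and 24304 in TOV21G, a log2 difference of 2.75 ± 0.04 (adjusted p 3.67e-15), and the gene that fell with ascites in TOV21G was thus 6.71-fold higher there to begin with. PFKFB4 was higher by 0.83 (249, 197 and 227 against 352, 465 and 384), and took 5.84% of the pair per kb of exon in CAOV3 and 1.63% in TOV21G. PDK1 was lower in TOV21G by 0.63 (1043, 1020 and 1062 against 705, 678 and 637).

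The hypoxia-induced members did not move as one between the untreated lines: 3 were higher in TOV21G and 5 lower. VEGFA had 992, 949 and 1024 in CAOV3 and 6014, 5943 and 5963 in TOV21G, a log2 difference of 2.59 ± 0.04 (adjusted p 1.9e-15). P4HA1, a subunit of collagen prolyl hydroxylase, was higher by 1.45 (1534, 1509 and 1490 against 4365, 3904 and 4174). BNIP3 (chr10:131966455-131982013, minus strand) was close to silent in CAOV3, with 2, 0 and 2 reads in the controls and 1, 4 and 0 after ascites, against 2339, 2232 and 2859 reads in the TOV21G controls. Its log2 difference of 10.18 depended on the pseudocount and the tool, and ran from 8.62 to 10.77 over the settings.

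CA9, EGLN3, ADM and NDRG1 went the other way, and KDM3A, a histone demethylase, was lower by 0.19. CA9 had 64, 63 and 84 reads in CAOV3 controls and 3, 2 and 0 in TOV21G controls (log2 difference -4.99 ± 0.50), and 38.5% of its exon bases lie opposite ARHGEF39, at a mean of 791 in CAOV3 controls and 474 in TOV21G controls. EGLN3 had 55, 64 and 57 reads against 5, 4 and 3 (-3.67 ± 0.23). ADM, the vasodilator peptide adrenomedullin, had 477, 531 and 464 against 224, 194 and 192 (-1.27). NDRG1 had 863, 785 and 886 against 467, 365 and 410 (-1.03). Thus VEGFA, P4HA1 and BNIP3 were high in the line where CA9 and EGLN3 were near their floor.

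Upstream of these genes, HIF1A had 7454, 7452 and 7840 in CAOV3 and 20198, 18378 and 19955 in TOV21G (log2 difference 1.36), and EPAS1 was higher by 0.75. HIF3A, which can inhibit the others, was lower by 4.53, from a mean of 65.6 to 1.96. MYC was higher by 3.84 (186.5 against 2679 in the means) and TXNIP by 0.19. Of the HIF factors and sensors 8 of 12 were called higher and 1 lower, and of the 30 further hypoxia-induced genes 14 were called higher and 15 lower, beside 82.2% of all genes called (40.8% higher and 41.4% lower). The latter ran from CA12, a carbonic anhydrase like CA9 (-3.04), to DDIT4, an inhibitor of mTORC1 (4.05).

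By limma, most tested genes of the pathways around glycolysis were called at baseline. Of 9 genes of glucose sensing, 5 were called higher in TOV21G and 3 lower. Around pyruvate 2 of 13 were higher and 8 lower, and in the pentose phosphate pathway 5 of 7 and 2. Of 7 other isoforms 5 were higher and 2 lower, and of 10 other transporters 2 and 5. Over all tested genes 82.2% were called (40.8% higher and 41.4% lower). Only extremes of each list are named here. Among genes of glucose sensing PPARGC1A, a coactivator of mitochondrial genes, was lower in TOV21G (-3.24). Around pyruvate the extremes were MPC2, a subunit of the mitochondrial pyruvate carrier (1.57), and PC, pyruvate carboxylase (-2.35). In the pentose phosphate pathway TKT (0.60) and RPE (-0.67) were the extremes, among other isoforms HKDC1 and BPGM (-0.64), and among other transporters SLC2A6 (1.48) and SLC16A7 (-8.44).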

How the data were processed

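RNA was sequenced from 12 libraries, and the submitters' processing notes name Trim Galore, cutadapt, STAR, HTSeq and DESeq, without versions or roles. The genome build, annotation and strand setting are not given in the sources used here. The authors deposited 1 normalised signal per gene and library. All values (100%) were whole multiples of 1 step per library, within 0.01 reads, so reads were recovered by division, and the steps matched size factors computed by DESeq2 over all 12 libraries. No listed gene had fewer than 10 reads in its highest library.

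Names came from a gene name table (19087), GENCODE 29 (136), or none (28), and positions from GENCODE 29 on GRCh38. Genes with a value of at least 10 in at least 3 libraries were tested (17616 of 19251) on log2(value + 1), in 1 linear model of all 12 libraries with a mean per group and a moderated variance with a trend (limma 3.58.1, R 4.3.3). Fold changes on this scale understate the change of low genes. P-values are two-sided and Benjamini-Hochberg adjusted per contrast, and intervals are 95% intervals of the fit. The planned test for raw counts, edgeR 4.0.16, and DESeq2 1.42.0 ran on recovered reads as alternatives, as did other pseudocounts, filters and scalings, a length and GC trend removed, and each library left out. On simulated data for CAOV3 (17598 genes) the fit recovered 40% of genes changed 1.25-fold and 96% of those changed 1.5-fold. It also called 25 of 17398 unchanged genes, of which 2 had a control mean of at least 100. Beside these false calls stood 20, 48, 50 and 50 true ones, of 50 genes each changed 1.25-, 1.5-, 2- and 4-fold. For TOV21G, where no gene was changed, 5 of 17598 were called. The simulation gave every gene the same dispersion and changed only genes with a mean of at least 100 in both lines. Recovery in the real libraries may therefore differ.

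Members and lists were chosen with earlier results of these data known. Named genes are all members called after ascites, uncalled ones with the largest difference up to 8 per line, the 8 largest baseline differences in each direction, the paralog groups, and from other lists the genes called after ascites and the baseline extremes, save those not reported here. No replicate pair agreed within read sampling noise (chi-square per degree of freedom 1.81 to 22.6).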

Additional observations from a re-analysis of the deposited data

Results flagged for a closer look

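The ascites response was called different between the lines, by the interaction term of the limma fit, for 6 of the genes described. The log2 response in TOV21G minus that in CAOV3 was -0.37 for VEGFA (adjusted p 0.0093) and -0.38 for PFKFB3 (adjusted p 0.0157). VEGFA was higher in CAOV3 (0.19) and its TOV21G ascites libraries lay below all controls (-0.18), while PFKFB3 was at 0.10 and -0.28. Outside the 32 genes the difference was -0.54 for ANGPTL4 (adjusted p 0.0104), -0.42 for BHLHE40 (adjusted p 0.0269) and -0.36 for TXNIP (adjusted p 0.049). For KRT8, an epithelial keratin, it was -0.41 (adjusted p 0.0483). With each of the 12 libraries left out in turn, VEGFA and ANGPTL4 stayed called. The calls of PFKFB3, BHLHE40, KRT8 and TXNIP were lost 6, 9, 10 and 11 times. With replicate number added to the limma fit as a block, none of the 6 was called (adjusted p 0.119 to 0.364).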

How the results depend on the processing

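At baseline 12 members were called higher and 17 lower in every setting. In CAOV3, HK2 was called in all 23 settings, VEGFA in 15 and HK1 in 14. The replicate block, fitted although replicate numbers did not pair the libraries (correlations of same-numbered deviations -0.02, 0.02 and 0.02 in CAOV3, and -0.11, -0.33 and 0.02 in TOV21G), left 1 member called in CAOV3 (HK2), 0 in TOV21G and 0 between the responses; VEGFA then had an adjusted p of 0.119 for the difference. Not every library correlated best with its own number. Genes called over the whole table under the block were 116 in CAOV3, 13 in TOV21G and 9 between the responses, against 305, 72 and 96. With edgeR they were 511, 114 and 148, and with DESeq2 466, 142 and 178; DESeq2 called 2 members lower in TOV21G and 4 for the difference. TMM scaling gave 151 for the difference. With TOV21G libraries alone, 8 genes and 0 members were called there. Without the TOV21G libraries with the lowest and highest KCNQ1OT1 (chosen after seeing the data, and also those with the highest and lowest enzyme sums of their groups), 0 members were called in TOV21G, and 56 genes for the difference. Leaving out each library in turn gave 1 to 3 members higher in CAOV3 (172 to 344 genes), 0 to 1 higher and 0 to 2 lower in TOV21G (24 to 136 genes), 1 to 3 lower for the difference (40 to 146 genes), and 14020 to 14575 genes at baseline. Where 1 library of a group was left out, the spread came from all groups. Counts over all genes moved by over 1.5 times in CAOV3 without control 1, control 3, ascites 1 or ascites 2, in TOV21G without CAOV3 ascites 3 or any TOV21G library but control 2, and for the difference without any library but TOV21G controls 1 and 2. No called value changed sign. Fewer libraries or fewer degrees of freedom enter the block, the 2-group fit and the fits without a library; the cause of the other changes was not tested. CA9, EGLN3 and BNIP3 are limited by reads in 1 of the lines.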
